A study of Mus musculus with 35 samples.

Results

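Solute carriers are membrane proteins that move amino acids, sugars, nucleosides, metals, ions, lipids and metabolites across the plasma membrane or the membranes of organelles. The genes described here are all those whose symbol starts with Slc and a digit and that were measured over 1 CPM (counts scaled to a common library total) in at least 5 of 35 samples of sorted liver macrophages (macs), without *Slc40a1*, *Slc11a1*, *Slc48a1* and *Slc7a11* and without symbols ending in os or -ps. Of 366 such symbols, 224 in 44 families passed, among 13421 genes of any kind over the same limit. A further 142 did not pass, and 42 of these had 0 counts in every sample. Of the 224 genes, 165 were over 1 CPM in every sample, and 9 were over it in only 5 to 9 samples.

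The samples were bulk RNA-seq of macs sorted from livers of C57Bl/6J mice on CLEC4F, a lectin of Kupffer cells, and TIM4, a receptor for dying cells. Resident Kupffer cells (ResKCs, CLEC4F+TIM4+) came from mice on a standard diet (SD, n = 7) or a Western diet rich in fat, cholesterol and sugar (WD, n = 5) for 12 weeks, and on the SD (n = 6) or WD (n = 6) for 24 weeks. Monocyte-derived Kupffer cells (moKCs, CLEC4F+TIM4-, n = 5) and CLEC4F- macs (CLEC4F-TIM4-, n = 6) came from the WD at 24 weeks alone, and no SD samples of them were analysed here. The diets were started in young mice, and the diet experiments used males. The labels name no altered allele in any group. For the 12-week WD samples a single label gives the standard diet while the titles give the WD, and the titles were followed. Nothing in the labels says that each sample is 1 mouse, so p-values measure the spread between samples.

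Totals lay between 11568590 and 15163845 counts per sample, at which 3 counts are 0.198 to 0.259 CPM. The labelled populations carried their defining markers: *Timd4* was 547 to 1358 CPM in ResKC samples, 2.85 to 30.3 in moKCs and 3.43 to 14.6 in CLEC4F- macs. *Clec4f* was 294 to 1539 CPM in 5 of the CLEC4F- samples but 5488 CPM in replicate 4, which also held the least *Ccr2*, a monocyte receptor (217 CPM against 557 to 1131). That sample stood apart in *Clec4f* and *Ccr2*, and its *Cd5l*, another Kupffer cell marker, was highest (6604 CPM against 940 to 3947). Its *Vsig4*, a further such marker, did not stand apart, at 46.5 CPM beside 50.7 and 45.2 in replicates 5 and 6. WD ResKCs at 24 weeks held 2772 to 3441 CPM of *Vsig4*. The counts of calls against CLEC4F- macs and the fold changes of *Slc45a3*, *Slc16a9* and *Slc1a3* are given with and without replicate 4. Other values of single genes in CLEC4F- macs include it. A list of 10 hepatocyte markers summed to 537 to 3809 CPM over all samples and overlapped between all groups. A list of 8 endothelial markers summed to 543 to 902 CPM in CLEC4F- macs and 847 to 1447 CPM in WD ResKCs at 24 weeks. Of these, only *Stab2* (medians 112 and 357 CPM), *Cdh5* (67 and 365) and *Pecam1* (71.7 and 144) had lower medians in CLEC4F- macs. *Clec4g*, *Oit3*, *Ptprb*, *Kdr* and *Ehd3* had somewhat higher medians there, with overlapping ranges. A list of 6 monocyte markers summed to 263 to 1315 CPM in CLEC4F- macs and 21.1 to 53.9 CPM in WD ResKCs at 24 weeks. The part of other cells in the differences below was not tested, except for hepatocytes as described for *Alb*, and in bulk samples fewer cells of a type and less RNA per cell cannot be told apart.

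Macs meet cell debris, iron, nucleic acids and lipids by engulfment, and carriers of their lysosomes return the digested amino acids, nucleosides, sugars and metals to the cytosol. Carriers of the plasma membrane supply glutamine, arginine, glucose and lactate exchange, which are known to shift when macs are activated. In liver tissue, many of the best-known carriers (bile acid, organic cation and fatty acid uptake) belong to hepatocytes.

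Levels compared between genes are given as CPM per kb of exon. The highest was *Slc25a5*, which exchanges ADP and ATP across the inner mitochondrial membrane, with a mean of 365 CPM per kb. The next were *Slc29a1*, the equilibrative nucleoside carrier ENT1, at 148, *Slc3a2*, the heavy chain that brings amino acid carriers to the cell surface, at 131, and *Slc7a8*, a light chain that pairs with it and carries neutral amino acids, at 118. The scaffold *Slc9a3r1*, which is named for a carrier but carries nothing, followed at 85.8, the mitochondrial sodium/calcium exchanger *Slc8b1* at 74.98 and the mitochondrial carrier *Slc25a39* at 69.6. *Slc25a5* has many processed copies in the genome and a near relative in *Slc25a4*, so its reads may be shared with them and its value is uncertain.

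**Figure D1:**
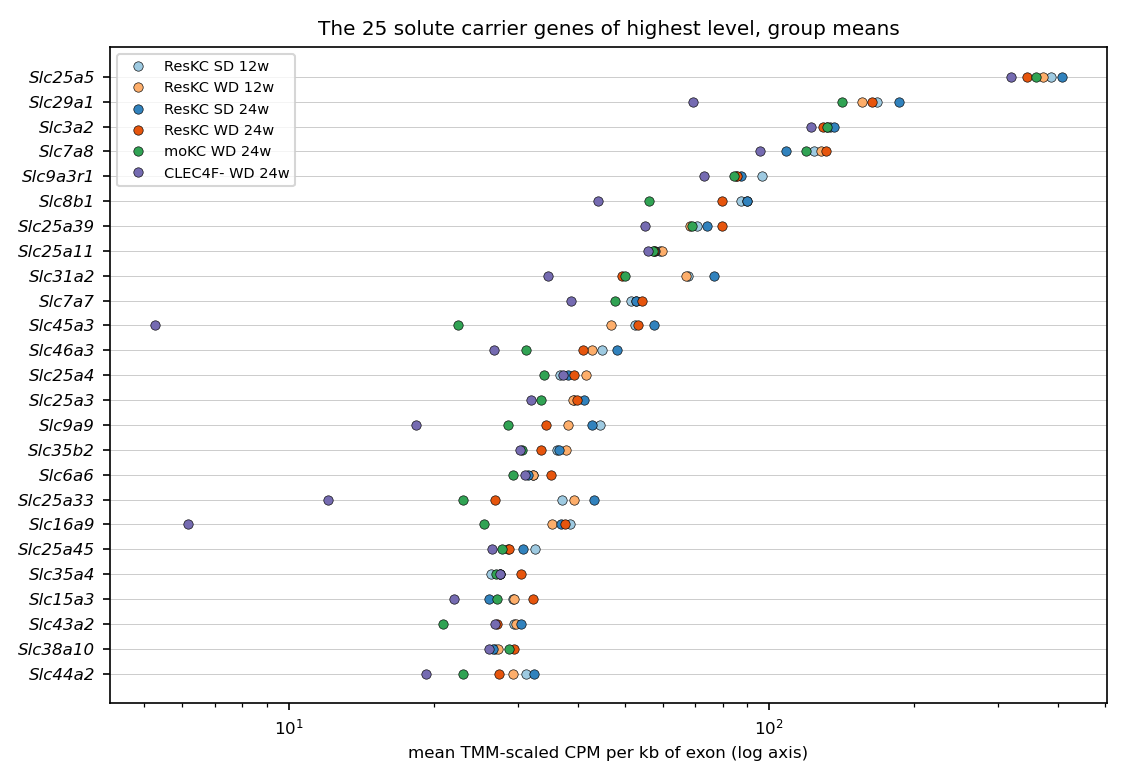
Group means of the 25 solute carrier genes of highest level, in TMM-scaled CPM per kb of exon on a log axis, with 1 point per group. Most genes lie close together across groups, and the CLEC4F- macs stand well to the left for *Slc29a1*, *Slc45a3*, *Slc16a9* and *Slc25a33*.

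All 224 genes together had a sum of 11710 ± 310 CPM (mean ± SD, n = 6) for 24-week WD ResKCs, 10630 ± 223 (n = 5) in moKCs and 9649 ± 475 (n = 6) in CLEC4F- macs. The sums of 24-week WD ResKCs (11430 to 12170) did not overlap those of moKCs (10340 to 10940) or of CLEC4F- macs (8881 to 10370). Sums of SD ResKCs at 24 weeks (10730 to 12820) and of WD ResKCs at 12 weeks (10730 to 12180) did overlap those of moKCs. Those of SD ResKCs at 12 weeks (11110 to 11840) did not. All sums rest on TMM factors, and sums by library size alone were not computed. Among the classes, carriers of inorganic ions and pH stood at 1391 ± 82.5 CPM in WD ResKCs and 966 ± 82.4 in CLEC4F- macs, and sugar carriers at 725 ± 31.8 and 554 ± 38.5. Carriers of vitamins and nucleosides stood at 1110 ± 126 and 718 ± 63.9 CPM, of which *Slc29a1* alone gave 657 and 279 CPM. Sums of nucleotide sugar and Golgi carriers overlapped, at 1069 to 1200 and 1018 to 1101 CPM, and so did those of metal carriers, at 905 to 1013 and 839 to 982 CPM.

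A gene was called where the quasi-likelihood test of edgeR gave an adjusted p under 0.05 over all 13421 genes. By a test for any difference among the 6 groups, 109 of the 224 genes (48.7%) were called, against 43.8% of all genes. Mitochondrial carriers gave 16 of 40, amino acid carriers 15 of 29, carriers of inorganic ions and pH 16 of 29, metal carriers 12 of 25, and nucleotide sugar and Golgi carriers 11 of 22. Several carriers often studied in macs were not called in any pair of groups that was tested, and not all pairs were tested. *Slc2a1*, the basal glucose carrier GLUT1, was at 46.6, 46.99 and 46.6 CPM in WD ResKCs, moKCs and CLEC4F- macs, and *Slc31a1*, the copper importer, at 82.0, 92.7 and 88.7 CPM. The same held for *Slc2a3* (GLUT3), *Slc11a2*, which carries ferrous iron, *Slc30a1*, which exports zinc, and the mitochondrial citrate and carnitine carriers *Slc25a1* and *Slc25a20*.

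The comparison of WD ResKCs with CLEC4F- macs at 24 weeks asks how resident cells differ from recruited cells that lack CLEC4F. In it 58 genes were higher in ResKCs (25.9% of the 224, against 17.0% of all genes) and 22 were lower (9.82%, against 16.1% of all genes). Their median log2 fold change was 0.14 over the 224 genes and -0.02 over all genes. With library size alone in place of TMM factors the calls were 50 higher and 32 lower, and the median of all genes moved by -0.12. Without replicate 4 of the CLEC4F- macs 90 genes were called, 68 higher and 22 lower, and these held all 80. Higher calls outnumbered lower ones in every class except carboxylate carriers (1 higher, 3 lower of 13). Sugar carriers gave 6 higher and 1 lower of 13, ions and pH 9 and 2 of 29, and mitochondrial carriers 8 and 3 of 40. Organic ion and bile acid carriers gave 5 and 1 of 16, vitamin and nucleoside carriers 4 and 1 of 13, and fatty acid and choline carriers 3 and 1 of 7. The moKC mean lay between the means of the other 2 groups for 74 of the 80 genes (92.5%), against 88.3% of the 4433 genes called in all.

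**Figure D2:**
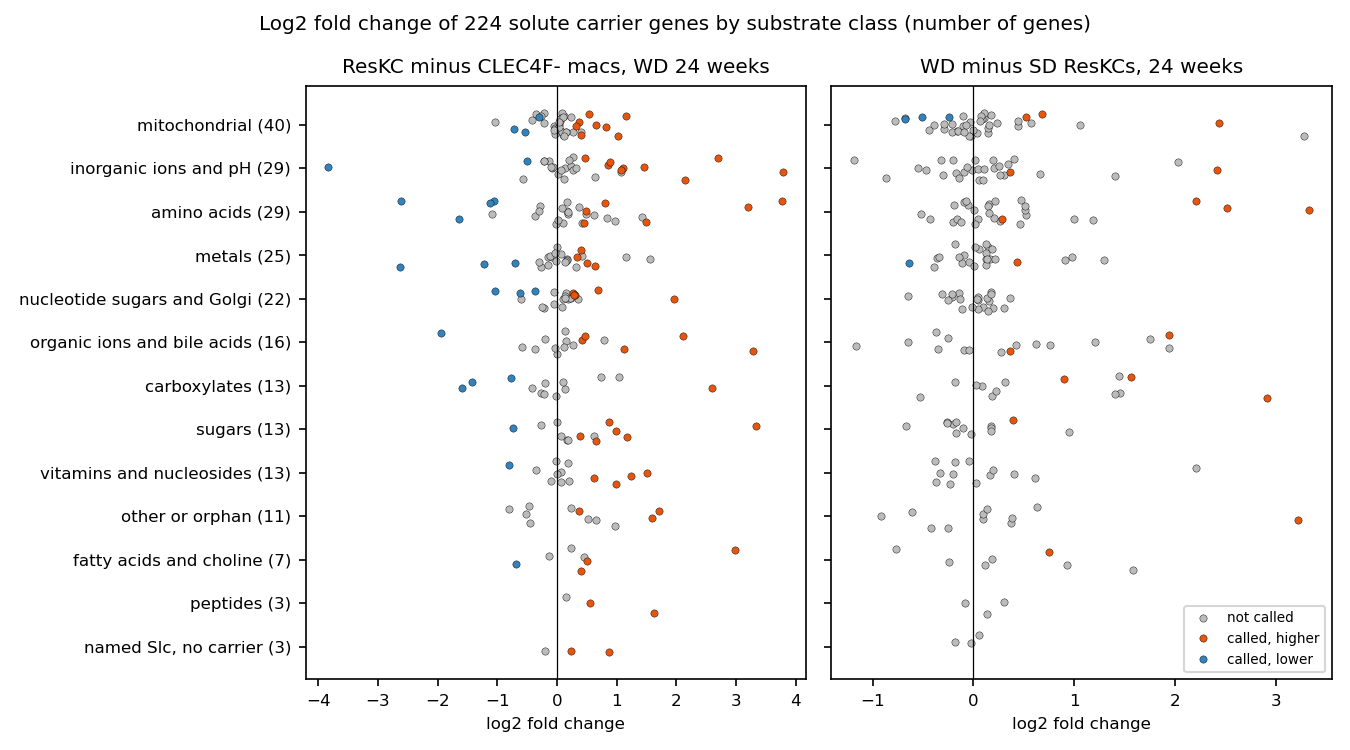
Log2 fold change of each of the 224 genes by substrate class, for WD ResKCs against CLEC4F- macs (left) and for WD against SD ResKCs at 24 weeks (right), with 1 point per gene and called genes in colour. Called genes lie on both sides on the left in most classes, with 58 higher and 22 lower, and mostly to the right of 0 in the diet comparison, with 18 higher and 4 lower.

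Of the sugar carriers, *Slc45a3*, of a family of proton-coupled sugar carriers, was at 167 to 229 CPM in WD ResKCs (median 182). It was at 63.1, 69.2, 75.2, 86.2 and 107 CPM in the 5 moKC samples and at 3.05 to 56.9 CPM in CLEC4F- macs (median 13.1). The 3 populations did not overlap, and the log2 fold change of ResKCs over CLEC4F- macs was 3.34 ± 0.36 (SE, adjusted p = 7.9e-09), or 4.10 without replicate 4. Its level in ResKCs of the other 3 groups was as high, with means between 167 and 205 CPM.

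The paired glucose-6-phosphate carriers *Slc37a1* and *Slc37a2*, which exchange sugar phosphate for phosphate, went opposite ways. *Slc37a1* was 18.4 to 26.2 CPM in WD ResKCs and 7.26 to 11.4 in CLEC4F- macs (log2 1.17 ± 0.18, adjusted p = 3.5e-06). *Slc37a2* was 132 to 178 CPM in WD ResKCs and 210 to 291 in CLEC4F- macs (log2 -0.73 ± 0.10, adjusted p = 1.2e-06). In neither gene did the groups overlap. *Slc2a6*, a hexose carrier of lysosomes, was higher in ResKCs, at 34.01 against 18.6 CPM (log2 0.87 ± 0.22, adjusted p = 0.0028).

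The carboxylate carriers split in the same manner. *Slc16a9*, a monocarboxylate family member, was 120 to 190 CPM in WD ResKCs (median 141) and 6.10 to 62.1 in CLEC4F- macs (median 18.5). The moKC samples lay between them at 75.6, 88.8, 99.9, 111 and 117 CPM. The log2 fold change of ResKCs over CLEC4F- macs was 2.61 ± 0.27 (adjusted p = 4.7e-09), or 3.16 without replicate 4. *Slc16a1*, the lactate and pyruvate carrier MCT1, was instead 2.54 to 14.3 CPM in WD ResKCs and 20.8 to 28.9 CPM in CLEC4F- macs (log2 -1.42 ± 0.42, adjusted p = 0.0075). *Slc16a6* and *Slc13a3*, a dicarboxylate carrier, were also lower in ResKCs, at 16.6 against 28.2 CPM and 3.42 against 10.3 CPM.

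Promoters of 4 genes, picked after their values were seen, are shown to set genes of either direction side by side: the pair *Slc37a1* and *Slc37a2*, *Slc16a9*, and *Slc9a7*, a sodium/proton exchanger described further on. Each line gives the 250 bases before the RefSeq transcript start (GRCm38.p6), 5′ to 3′ on the gene's strand, with capitals where GGGCGG (a GC box) or TGACTCA (the site of AP-1 factors) matches on either strand. *Slc16a9* lies at chr10:70245026-70245275 (plus strand) and *Slc37a1* at chr17:31295974-31296223 (plus strand), both higher in ResKCs. *Slc9a7* lies at chrX:20291828-20292077 (minus strand) and *Slc37a2* at chr9:37255739-37255988 (minus strand), both higher in CLEC4F- macs.
Slc16a9: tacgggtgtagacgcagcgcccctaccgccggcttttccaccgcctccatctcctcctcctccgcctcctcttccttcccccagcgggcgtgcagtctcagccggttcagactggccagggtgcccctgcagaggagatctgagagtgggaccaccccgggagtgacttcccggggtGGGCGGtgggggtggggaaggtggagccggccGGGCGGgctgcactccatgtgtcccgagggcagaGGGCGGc
Slc37a1: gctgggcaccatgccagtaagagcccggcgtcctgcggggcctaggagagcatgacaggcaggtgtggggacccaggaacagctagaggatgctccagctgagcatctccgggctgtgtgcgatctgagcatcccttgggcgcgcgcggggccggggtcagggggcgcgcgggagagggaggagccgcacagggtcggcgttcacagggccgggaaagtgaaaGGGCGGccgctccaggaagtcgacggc
Slc9a7: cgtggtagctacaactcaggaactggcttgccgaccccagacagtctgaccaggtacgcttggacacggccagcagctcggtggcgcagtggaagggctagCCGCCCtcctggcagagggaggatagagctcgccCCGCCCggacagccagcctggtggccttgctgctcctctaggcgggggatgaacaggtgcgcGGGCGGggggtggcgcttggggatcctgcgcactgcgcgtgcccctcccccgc
Slc37a2: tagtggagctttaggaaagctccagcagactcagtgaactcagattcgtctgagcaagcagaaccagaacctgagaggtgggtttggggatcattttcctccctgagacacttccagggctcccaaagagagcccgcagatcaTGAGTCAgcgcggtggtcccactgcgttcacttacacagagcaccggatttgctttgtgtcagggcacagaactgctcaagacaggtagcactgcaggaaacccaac
*Slc16a9* and *Slc9a7* hold 3 GC boxes each and *Slc37a1* holds 1, and *Slc37a2* holds none but a single AP-1 site on the minus strand. Of the 224 genes, 169 had a promoter in the table. GGGCGG was found in 65.7% of their promoters, 61.9% of those of all genes over the expression limit and 35.4% of all promoters. TGACTCA was found in 4.73%, 4.13% and 5.16%, and CACGTG, the E-box, in 16% (27 genes, *Slc29a1*, *Slc16a1*, *Slc27a1* and *Slc36a1* among them), 9.84% and 6.86%. These are matches of letters and carry no test.

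Amino acid carriers gave 6 higher and 4 lower calls of 29. The glutamate carrier *Slc1a3* was 21.95 to 33.4 CPM in WD ResKCs and 0.208 to 10.5 in CLEC4F- macs, without overlap (log2 3.21 ± 0.40, adjusted p = 1.1e-07; 4.20 without replicate 4). The moKC samples held 9.47, 11.4, 17.8, 18.8 and 21.6 CPM. Its family member *Slc1a5*, the main glutamine importer of many cells, ran the other way. It was 4.34 to 11.3 CPM in WD ResKCs (median 6.90), 13.8, 17.9, 22.3, 25.3 and 26.5 CPM in the moKC samples and 18.3 to 67.0 CPM in CLEC4F- macs (median 47.7). The log2 fold change of ResKCs over CLEC4F- macs was -2.62 ± 0.30 (adjusted p = 1.7e-08), and the same gene was below moKCs too (log2 -1.52 ± 0.30, adjusted p = 0.0023). In ResKCs of the other groups its means were 5.19 to 6.37 CPM.

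Further importers fell short of their CLEC4F- level in ResKCs. *Slc7a5*, the light chain LAT1 for large neutral amino acids, was 6.84 to 8.75 against 10.7 to 20.7 CPM (log2 -1.12 ± 0.26, adjusted p = 0.0011). *Slc7a1*, a cationic amino acid carrier, was at 4.10 against 8.51 CPM on average, and *Slc7a6*, which exchanges cationic for neutral amino acids, at 2.80 against 8.72 CPM. Its relative *Slc7a7* was higher in ResKCs, at 180 against 128 CPM (log2 0.49 ± 0.09, adjusted p = 8.6e-05), and so was *Slc7a8*, at 617 to 699 against 351 to 569 CPM. Their shared heavy chain *Slc3a2* was not called, at 385 to 497 against 395 to 453 CPM.

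**Figure D3:**
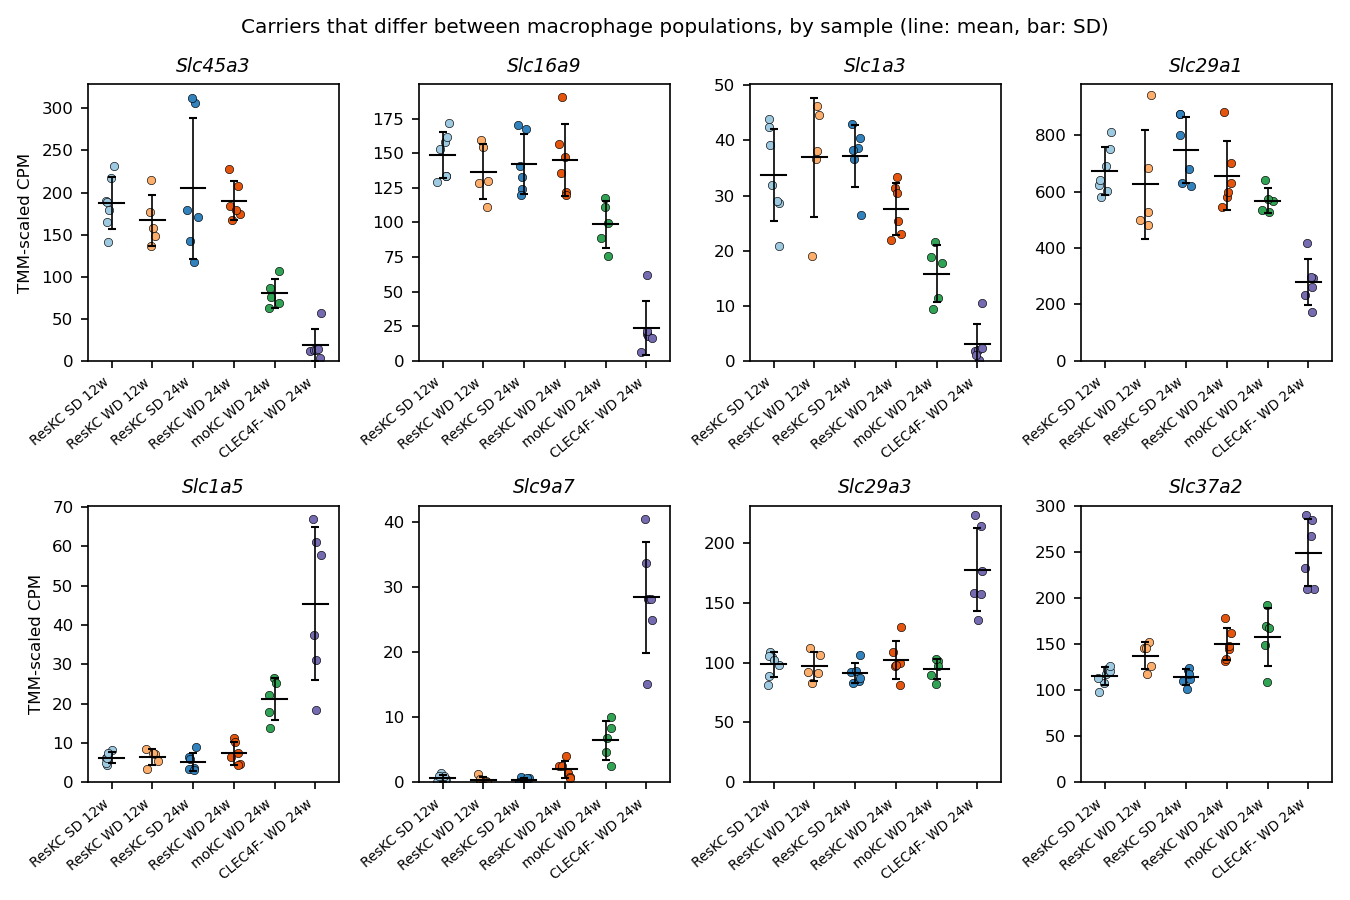
TMM-scaled CPM of 8 carriers in each of the 35 samples by group, with the mean as a line and the SD as a bar. *Slc45a3*, *Slc16a9*, *Slc1a3* and *Slc29a1* are lowest in CLEC4F- macs and *Slc1a5*, *Slc9a7*, *Slc29a3* and *Slc37a2* highest there, and the uppermost CLEC4F- sample in the top row is replicate 4.

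Carriers of nucleosides again held members of 1 family on both sides. *Slc29a1* was 546 to 882 CPM in WD ResKCs (median 615) and 171 to 418 in CLEC4F- macs (median 277), a log2 fold change of 1.24 ± 0.16 (adjusted p = 2.9e-07). The moKC samples held 527, 534, 567, 573 and 642 CPM, within the ResKC range or just below it. *Slc29a3*, the nucleoside carrier of lysosomes, was 80.8 to 129 CPM in WD ResKCs and 136 to 224 in CLEC4F- macs (log2 -0.80 ± 0.11, adjusted p = 5.6e-07). The concentrative purine nucleoside carrier *Slc28a2* was higher in ResKCs, at 72.9 against 36.8 CPM. *Slc46a1*, the proton-coupled folate carrier, was 24.0 to 41.8 against 8.60 to 16.3 CPM (log2 1.51 ± 0.15, adjusted p = 1.9e-09).

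Among carriers of inorganic ions, *Slc9a7*, a sodium/proton exchanger of the Golgi network, was the member furthest below CLEC4F- macs. It was 0.614 to 4.10 CPM in WD ResKCs, 2.45, 4.65, 6.81, 8.33 and 9.94 CPM in moKCs and 15.1 to 40.4 CPM in CLEC4F- macs (log2 -3.83 ± 0.54, adjusted p = 1.1e-06). Its endosomal relative *Slc9a9* was higher in ResKCs, at 176 to 224 against 84.5 to 137 CPM (log2 0.90 ± 0.11, adjusted p = 4.8e-08). The sodium, potassium and chloride cotransporter *Slc12a2* was 70.8 to 103 CPM in WD ResKCs and 22.3 to 49.5 in CLEC4F- macs (log2 1.46 ± 0.15, adjusted p = 3.6e-09). *Slc12a7*, which lets potassium and chloride out, was at 266 against 126 CPM, and *Slc8b1* at 276 against 153 CPM.

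Of the organic ion carriers, *Slc22a23*, which has no settled substrate, was 57.1 to 68.3 CPM in WD ResKCs, 29.7, 36.3, 39.7, 41.6 and 42.5 CPM in moKCs and 7.84 to 27.9 CPM in CLEC4F- macs. The log2 fold change over CLEC4F- macs was 2.12 ± 0.20 (adjusted p = 6.5e-10). *Slc22a17*, described as a receptor for lipocalin 2, was at 14.7, 4.21 and 1.48 CPM in these populations. Metal carriers gave 4 higher and 3 lower calls of 25, with the copper carrier *Slc31a2* at 100.4 against 70.5 CPM and the zinc exporter *Slc30a4* at 0.864 against 5.42 CPM. Among mitochondrial carriers the higher calls included *Slc25a10*, the dicarboxylate carrier, at 76.4 against 48.3 CPM and *Slc25a33*, a pyrimidine nucleotide carrier, at 50.7 against 22.7 CPM. The fatty acid transport protein *Slc27a1* was lower in ResKCs, at 33.4 against 53.5 CPM (log2 -0.68 ± 0.17, adjusted p = 0.0020). *Slc15a3*, a lysosomal carrier of peptides and histidine, was 147 to 195 CPM in WD ResKCs and 84.5 to 154 CPM in CLEC4F- macs (log2 0.55 ± 0.10, adjusted p = 8.7e-05), while its relative *Slc15a4* was not called, at 136 and 122 CPM. *Slc44a2*, a choline carrier, was higher in ResKCs, at 209 to 265 against 146 to 181 CPM (log2 0.50 ± 0.09, adjusted p = 1.7e-05), and *Slc44a1*, of the same family, was not called, at 94.9 and 104 CPM. The zinc carrier *Slc39a11* was 24.2 to 37.4 CPM in WD ResKCs and 47.5 to 56.5 in CLEC4F- macs (log2 -0.70 ± 0.10, adjusted p = 7.4e-07), against the direction of *Slc39a1*, another zinc importer, at 15.6 and 9.99 CPM. Of 22 nucleotide sugar and Golgi carriers 5 were higher and 3 lower, and the members of highest level were not called: *Slc35b2*, which brings the sulfate donor into the Golgi, was at 104 and 94.0 CPM. In all, 31 families held a called gene in this comparison, and 12 of them held genes called in both directions.

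The comparison of WD ResKCs with moKCs asks what separates resident from newly formed Kupffer cells. There 9 genes were higher in ResKCs (4.02% of the 224, against 2.00% of all genes) and 1 was lower (0.446%, against 0.991%). The lower one was *Slc1a5*, as above. The higher ones included *Slc45a3*, *Slc45a4*, *Slc46a1*, *Slc46a3*, *Slc22a17*, *Slc22a23*, *Slc8b1* and *Slc43a2*, a carrier of large neutral amino acids. *Slc46a3*, of the lysosome, was at 101 against 76.7 CPM (log2 0.39 ± 0.09, adjusted p = 0.011), and *Slc43a2* at 273 against 210.0 CPM (log2 0.38 ± 0.09, adjusted p = 0.019). *Slc1a5*, *Slc46a3* and *Slc22a17* were called in every fit that left out 1 sample, and the count fell to 3 without moKC replicate 4 and to 4 without WD ResKC replicate 2.

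Between moKCs and CLEC4F- macs, both recruited, 34 genes were higher in moKCs (15.2%, against 9.34% of all genes) and 10 were lower (4.46%, against 7.09%). With library size alone these were 26 and 15, and in a fit of the compared groups alone 20 and 13. Without replicate 4 of the CLEC4F- macs they were 40 and 11. *Slc16a9* (log2 2.05 ± 0.28, adjusted p = 2.7e-06), *Slc12a2* (1.16 ± 0.16, 2.4e-06) and *Slc28a2* (1.08 ± 0.13, 3.9e-07) were higher in moKCs. *Slc12a8*, of the cation-chloride family, was 3.02, 4.76, 5.05, 5.92 and 6.20 CPM in moKCs and 0.323 to 2.85 CPM in CLEC4F- macs, and *Slc5a11*, a myo-inositol carrier, 8.34 to 10.4 and 1.66 to 6.14 CPM. The fatty acid transport family member *Slc27a6* was 3.82, 6.44, 8.04, 12.1 and 42.4 CPM in moKCs and 0.0709 to 4.60 CPM in CLEC4F- macs, an overlap that rested on the highest CLEC4F- and the lowest moKC sample. *Slc29a3* (-0.91 ± 0.12, 1.1e-06) and *Slc37a2* (-0.66 ± 0.11, 4.4e-05) were lower. This comparison shares its samples with the previous ones, so the values are given side by side and not as an overlap.

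The diet comparisons ask what the WD changed in resident cells. At 24 weeks 18 genes were higher on the WD (8.04% of the 224, against 4.84% of all genes) and 4 were lower (1.79%, against 3.87%). At 12 weeks none was called in either direction by edgeR, where 0.0149% of all genes were higher and 0.0224% lower. At an unadjusted p under 0.05 the 12-week count was 21 of 224, against 1172 of all 13421 genes. Of the 224, limma-voom called none and DESeq2 called 1. ResKCs on the SD at 24 against 12 weeks gave no call, with 0% of all genes in either direction. There 18 of the 224 had an unadjusted p under 0.05, against 1208 of all 13421 genes.

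*Slc7a2*, the inducible carrier of arginine and other cationic amino acids, was 5.35 to 12.7 CPM on the SD and 20.2 to 68.0 CPM on the WD at 24 weeks (log2 2.21 ± 0.38, adjusted p = 3.6e-04). The groups did not overlap, and moKCs (34.9, 63.7, 63.9, 66.5 and 85.8 CPM) and CLEC4F- macs (29.1 to 77.0 CPM) were at or above the WD ResKC level. At 12 weeks the samples overlapped, at 3.69 to 27.4 on the SD and 10.1 to 28.3 on the WD. *Slc6a8*, the creatine carrier, was 0 to 0.602 CPM on the SD and 1.13 to 4.10 CPM on the WD at 24 weeks (adjusted p = 0.0016), and 1.83 to 6.67 CPM in CLEC4F- macs. *Slc16a3*, the lactate exporter MCT4, was 14.7 to 21.9 and 24.6 to 40.7 CPM (log2 0.90 ± 0.17, adjusted p = 8.6e-04), again without overlap.

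Smaller differences were called in genes of higher level. *Slc37a2* was 102 to 124 CPM on the SD and 132 to 178 CPM on the WD (log2 0.39 ± 0.10, adjusted p = 0.018). *Slc27a1*, which takes part in fatty acid uptake, was 14.7 to 26.9 and 23.7 to 40.8 CPM (log2 0.75 ± 0.17, adjusted p = 0.0063). *Slc7a8* was 478 to 630.2 and 617 to 699 CPM (log2 0.28 ± 0.08, adjusted p = 0.029). *Slc16a1* was 1.14 to 4.91 and 2.54 to 14.3 CPM (log2 1.56 ± 0.44, adjusted p = 0.023), with 5 of 6 WD samples above every SD sample. *Slc9a7* stood at 0 to 0.815 and 0.614 to 4.10 CPM (adjusted p = 0.017). The zinc importer *Slc39a10* was 28.5 to 47.0 CPM on the SD and 40.9 to 57.2 CPM on the WD (log2 0.43 ± 0.11, adjusted p = 0.018), and *Slc12a4*, a potassium and chloride cotransporter, 18.2 to 24.3 and 24.9 to 30.6 CPM (log2 0.37 ± 0.12, adjusted p = 0.043).

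The 4 genes that fell on the WD were *Slc25a36* and *Slc25a33*, both pyrimidine nucleotide carriers of mitochondria, *Slc25a5* and *Slc31a2*. *Slc25a36* was 57.9 to 73.1 CPM on the SD and 36.7 to 56.3 on the WD (log2 -0.51 ± 0.11, adjusted p = 0.0031). *Slc31a2* was 131 to 179.7 and 81.1 to 133 CPM (log2 -0.64 ± 0.13, adjusted p = 0.0023). *Slc25a5* was 646 to 707 and 521 to 632 CPM (log2 -0.24 ± 0.07, adjusted p = 0.027).

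Several marker lists of other cells had shifted ranges between the same groups at 24 weeks. The monocyte list summed to 9.95 to 28.6 CPM on the SD (median 14.1) and 21.1 to 53.9 CPM on the WD (median 26.8), and 5 cholangiocyte markers to 0.395 to 8.81 (median 1.87) and 4.91 to 48.3 CPM (median 10.8). Most of the cholangiocyte sum came from *Spp1*, with medians of 1.13 (SD) and 9.47 CPM (WD). *Epcam*, *Krt19*, *Krt7* and *Sox9* had medians under 1 CPM in both groups. *Spp1* encodes osteopontin, by which the paper marks a subset of CLEC4F- macs, and it was 205 to 598 CPM in CLEC4F- macs here. Whether its rise came from cholangiocytes or from macs was not tested. The endothelial list went the other way from the monocyte list, at 1271 to 2485 (median 1597) and 847 to 1447 CPM (median 1202). So did 6 B cell markers, at 21.2 to 55.7 (median 37.6) and 10.3 to 28.8 CPM (median 20.4), and 6 erythroid markers, at 36.2 to 117 (median 96.1) and 14.5 to 110.4 CPM (median 34.4). The ranges overlapped in each list, and their part in the genes that rose or fell was not tested.

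**Figure D4:**
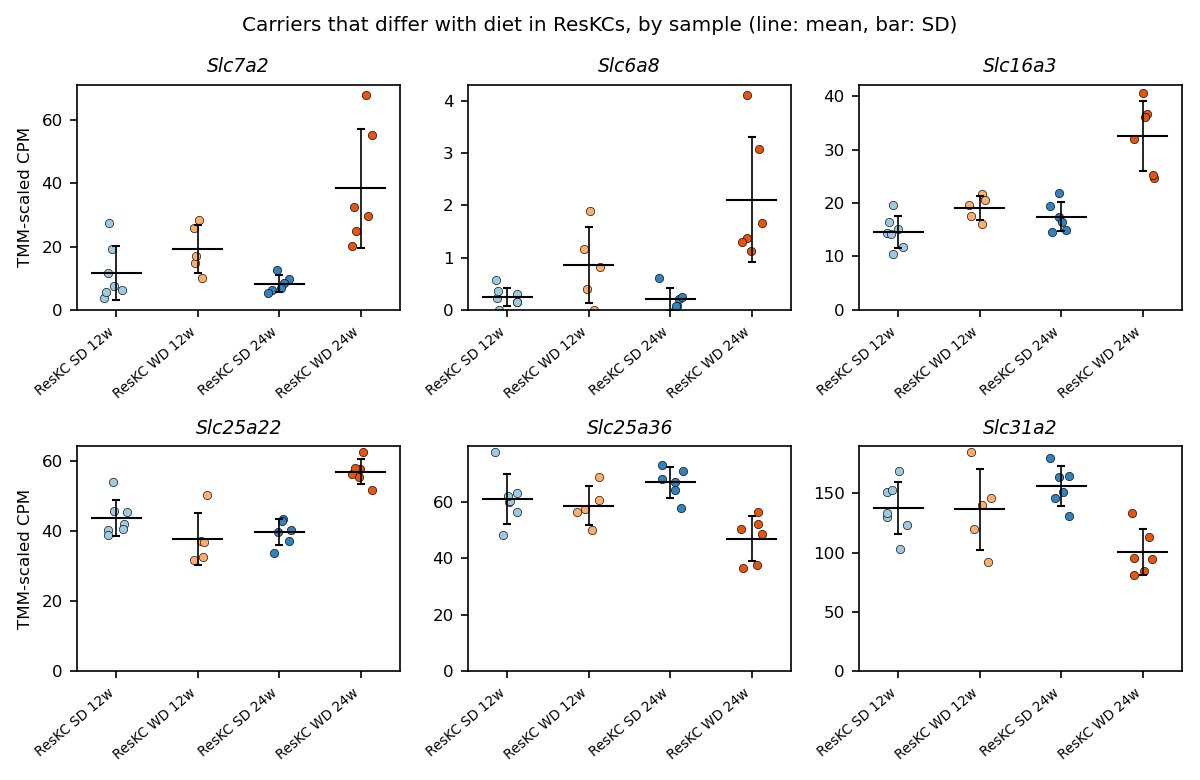
TMM-scaled CPM of 6 carriers in each ResKC sample by diet and time, with the mean as a line and the SD as a bar. At 24 weeks the WD samples lie above all SD samples for *Slc7a2*, *Slc6a8*, *Slc16a3* and *Slc25a22* and below all of them for *Slc25a36*, while *Slc31a2* overlaps by 1 sample.

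Immediate-early and heat-shock genes, which rise when cells are handled, moved with these groups, though their ranges overlapped, with a list of 10 summing to 2587 to 13820 CPM on the SD and 1050 to 4945 CPM on the WD at 24 weeks. With the score of that list as a covariate 8 of the 22 genes were called: *Slc6a8* (log2 3.29), *Slc9a7* (2.65), *Slc7a2* (1.58), *Slc16a3* (0.77), *Slc25a22* (0.59), *Slc25a5* (-0.28), *Slc25a36* (-0.53) and *Slc31a2* (-0.55). The other 14 were not called with it.

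Whether the effect of diet itself changed from 12 to 24 weeks was tested as an interaction, which was called for 1 gene, *Slc25a22*, a mitochondrial glutamate carrier, and it was higher (0.446% of the 224, against 0.0671% of all genes higher and 0.216% lower). Its samples were 33.6 to 43.5 CPM on the SD and 51.7 to 62.5 CPM on the WD at 24 weeks (log2 0.52 ± 0.10, adjusted p = 0.0017). At 12 weeks they were 38.9 to 53.9 CPM on the SD and 31.7, 32.5, 36.9, 37.1 and 50.2 CPM on the WD (log2 -0.22 ± 0.11, adjusted p = 0.57). The difference of both effects was 0.74 ± 0.15 on the log2 scale (adjusted p = 0.024), and it was not called without WD replicate 5 at 12 weeks or without SD replicate 1 at 24 weeks. For the other 21 genes called at 24 weeks a difference from the 12-week effect was not shown.

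Carriers known from hepatocytes were set against *Alb*, the albumin gene, which macs do not make. Of a list of 15, 14 were over the limit and *Slc22a28* was not. The slope of each gene's log2 level on log2 *Alb* within groups, where 1 means in proportion to *Alb*, was called for 13 of them, between 0.97 and 1.77 with a median of 1.16. For *Slc10a1*, the bile acid carrier NTCP, it was 1.16 ± 0.10 (adjusted p = 2.5e-10) and for *Slc27a5*, which joins bile acids to coenzyme A, 1.24 ± 0.08 (adjusted p = 5.3e-13). The sum of the 13 was 21.2 to 442 CPM over 35 samples, at 12.7 to 45.1 per 100 CPM of *Alb*. That ratio had its medians at 17.2 and 18.9 in SD ResKCs, 29.6 and 26.9 in WD ResKCs, 33.1 in moKCs and 36.3 in CLEC4F- macs.

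*Slc1a2*, a glutamate carrier that hepatocytes also make, was on the list but its slope on *Alb* was not called (slope 0.06 ± 0.09, adjusted p = 0.88). It was 23.8 to 52.4 CPM in WD ResKCs, 36.0 to 41.7 in moKCs and 6.52 to 20.7 in CLEC4F- macs, with CLEC4F- macs below all samples of both others (log2 1.496 ± 0.21 for ResKCs, adjusted p = 8.4e-07). *Alb* was 391 to 1051 CPM in WD ResKCs and 256 to 793 CPM in CLEC4F- macs.

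**Figure D5:**
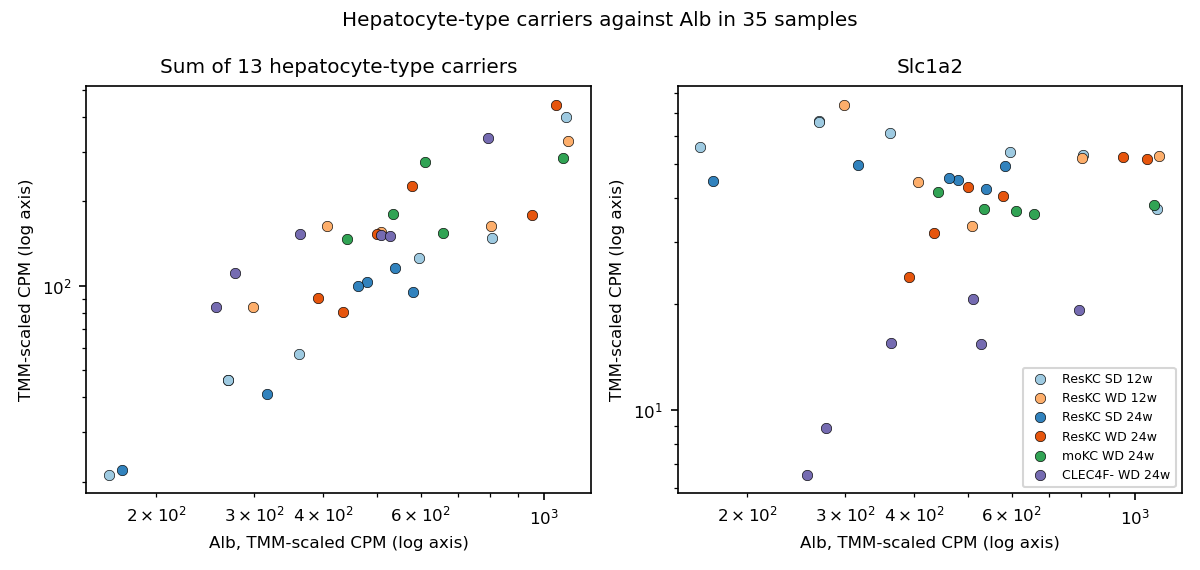
The sum of the 13 hepatocyte-type carriers that followed *Alb* (left) and *Slc1a2* (right) against *Alb* in 35 samples, in TMM-scaled CPM on log axes and coloured by group. The sum climbs with *Alb* from 21.2 to 442 CPM, while *Slc1a2* has a slope of 0.06 and is lowest in the CLEC4F- macs.

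In all, 29 of the 224 genes rose with *Alb* (12.9%, against 5.45% of all genes) and 1, the sulfate carrier *Slc26a2*, fell (0.446%, against 0.246%). Besides the 13, the 16 others included *Slc39a14*, which imports zinc and iron, *Slc25a15*, the ornithine carrier of the urea cycle, and *Slc23a1*, a vitamin C carrier. Of the 22 genes called for diet at 24 weeks, 5 had such a slope, among them *Slc25a47*, *Slc25a42*, *Slc6a12* and *Slc17a4*. *Alb* itself was 173 to 582 CPM on the SD and 391 to 1051 CPM on the WD at 24 weeks. *Slc25a47* was 1.81 to 7.43 and 10.9 to 56.5 CPM in these groups, and with a hepatocyte score as a covariate its log2 fold change went from 2.44 to 1.79 and it was still called. *Slc25a42* and *Slc6a12* were not called with that covariate (adjusted p = 0.072 and 0.059). *Slc7a2* kept its call (log2 2.00, adjusted p = 3.2e-04). Of the 80 genes that separated ResKCs from CLEC4F- macs, only *Slc22a18* followed *Alb*.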

How the data were processed

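RNA of sorted liver macs was sequenced in 35 samples. HISAT2 2.2.0, featureCounts 2.0.0 and mm10 stand in the submitters' processing notes, and the authors deposited raw counts for each gene symbol, as whole numbers. The annotation, strand setting and handling of multi-mapped reads are not given in the sources used here, so near-identical copies and antisense genes are uncertain. Groups follow the sample titles. Results of some genes counted among the members are not reported here.

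The 13421 genes that passed 1 CPM in 5 or more samples were scaled by TMM factors and tested by quasi-likelihood in edgeR 4.0.16 (R 4.3.3), in 1 fit of 6 group means over 35 samples, with p-values adjusted after Benjamini and Hochberg over all genes. Slopes on *Alb* came from the same fit with log2 CPM of *Alb* added. Exon lengths and positions are from GENCODE M21 and promoters from RefSeq (GRCm38.p6). Substrate classes were set by family. The members and lists were chosen with earlier results of these data known. Named genes are, for each pair of groups tested, up to 8 called members of largest change whose groups do not overlap, the 2 of highest level per class, hepatocyte-type carriers, carriers of known roles in macs and opposite members of a family. *Slc7a1*, *Slc12a2*, *Slc12a7*, *Slc13a3*, *Slc16a6*, *Slc25a4*, *Slc25a10*, *Slc28a2*, *Slc39a10* and *Slc45a4*, and the genes beyond the hepatocyte list named for their slope on *Alb*, were picked with their values known.

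Other settings tried were DESeq2 1.42.0, limma-voom (limma 3.58.1), library size alone, no filter, the compared groups alone, stricter limits, the replicate number as a block, hepatocyte and immediate-early scores as covariates, and each sample left out. The file headers name their alignments in 2 ways (22 and 13 samples), and a term for this was added after the data were seen. On simulated data with 200 of 13421 genes changed, edgeR recovered 62% of 2-fold and 90.5% of 4-fold changes in the 24-week diet comparison, and 64% and 89% between ResKCs and CLEC4F- macs. All other genes were simulated with the same mean in all groups. In the data 4433 genes were called between ResKCs and CLEC4F- macs, so the share recovered there may differ.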

Additional observations from a re-analysis of the deposited data

Results flagged for a closer look

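Among 29 solute carriers looked at sample by sample, 174 groups of samples were tested for a sample far from the others, and 10 values stood apart. Chance alone marks about 1 in 20 groups, so 10 of 174 is near what chance gives and the count itself is no result. In CLEC4F- macs, replicate 4 was far above the other 5 samples for *Slc45a3* (56.9 CPM, next 14.4), *Slc16a9* (62.1 CPM, next 21.5) and *Slc1a3* (10.5 CPM, next 2.34), all carriers that were high in ResKCs, and the same sample held *Clec4f* at 5488 CPM. Its *Vsig4* (46.5 CPM) was near that of replicates 5 and 6 (50.7 and 45.2 CPM). Replicate 3 of the CLEC4F- macs was high for the hepatocyte-type carrier *Slc25a47* (46.9 CPM, next 21.99), and so were WD ResKC replicate 3 at 12 weeks (24.0 CPM, next 10.8) and, for *Slc10a1*, SD ResKC replicate 7 at 12 weeks (31.7 CPM, next 11.8). In moKCs, replicate 1 was high for *Slc37a1* (22.9 CPM) and low for *Slc27a1* (18.2 CPM, next 30.7). *Slc12a2* was low in SD ResKC replicate 6 at 24 weeks (58.9 CPM, next 78.5), and *Slc22a23* was high in WD ResKC replicate 1 at 12 weeks (107.6 CPM, next 74.5).

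*Slc25a22* differed in its diet effect between 24 and 12 weeks by 0.74 on the log2 scale, as tested by the interaction term in edgeR (adjusted p = 0.024).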

How the results depend on the processing

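Of 123 called values of genes taken by the naming rule, none changed direction under the alternatives run. Genes picked with their values known were not part of that count. The 123 were taken because they were called, so a change of direction was unlikely from the start. Calls were lost for 13 of 123 with the immediate-early score, 12 with no filter, 10 each with limma-voom and library size alone, and 0 with DESeq2. With an absolute log2 fold change over 1 the called genes were 9 for diet at 24 weeks, 35 for ResKCs over CLEC4F- macs, 4 for ResKCs over moKCs, 19 for moKCs over CLEC4F- macs and 0 for the difference of diet effects, and with one over 1.5 and an adjusted p under 0.01 they were 3, 19, 2, 9 and 0. With the immediate-early score as a covariate they were 8 for diet at 24 weeks (main 22) and 6 between ResKCs and moKCs (main 10). DESeq2 gave 16 between ResKCs and moKCs, 1 for diet at 12 weeks and 2 for the difference of diet effects, no filter gave 5 between ResKCs and moKCs, and the hepatocyte score gave 3 for the difference of diet effects. A term for the naming of the alignments gave 18 for diet at 24 weeks, where all SD samples carried 1 name form, and 80, 12 and 42 between the populations. The causes were not tested. Leaving out 1 sample at a time gave 16 to 27 for diet at 24 weeks, 0 to 3 at 12 weeks (3 without SD replicate 7), 73 to 90 between ResKCs and CLEC4F- macs, 3 to 12 between ResKCs and moKCs, 35 to 51 between moKCs and CLEC4F- macs, 0 to 2 for the difference of diet effects (2 without SD replicate 7 or WD replicate 1 at 12 weeks, 0 without WD replicate 5 at 12 weeks or SD replicate 1 at 24 weeks), 0 for SD ResKCs over time, 99 to 122 for any difference and 26 to 33 for the slope on *Alb*. In every such fit and every other setting with the same call limit, 6 of the 22 diet genes and 64 of the 80 genes between ResKCs and CLEC4F- macs were called. Between ResKCs and moKCs the count was 6, 4 and 6 without WD ResKC replicates 1, 2 and 5, and 5, 3 and 5 without moKC replicates 2, 4 and 5.

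With the replicate number as a replicate block the counts were 27 for diet at 24 weeks, 3 at 12 weeks, 80, 9 and 45 between the populations, 0 for SD ResKCs over time, 2 for the difference of diet effects, 120 for any difference and 23 for the slope on *Alb*. Deviations of same-numbered samples had a mean correlation of -0.11 for diet at 12 weeks, 0.056 at 24 weeks, 0.001 between ResKCs and moKCs, -0.032 between moKCs and CLEC4F- macs and 0.117 between ResKCs and CLEC4F- macs. In the last all 6 pairs were above 0 (0.024 to 0.263) and 4 of 6 were over 0.1. The labels do not say whether same-numbered samples came from the same mice, so whether they are paired there cannot be told, and the count with the block was 80, as without it. Genes near 1 CPM, such as *Slc6a8*, rest on few counts, and a fitted fold change there depends on the prior count.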
